A study of Mus musculus with 20 samples.

Results

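At embryonic day 18 (E18), 200 of the 377 kept wells of the 2 Brn3a-tauLacZ plates of mouse habenula held transcripts of Sox2 together with those of at least 2 of 4 further genes. They were chosen by transcript counts alone: a Sox2 count of at least 1 and a count of at least 1 for 2 or more of Adgrv1, Slc1a3, Tmem132c and Nfix. Of the 200, 197 lay on plate 1 and 3 on plate 2, and the other 177 kept wells divided as 70 on plate 1 and 107 on plate 2. The study sequenced single cells of the developing habenula, a paired nucleus of the dorsal diencephalon, by the plate-based Cel-seq2 method, in which each transcript carries a unique molecular identifier (UMI). A series of 15 plates from E11 to the adult came from the mouse line Brn3a-tauLacZ, in which a lacZ reporter is tied to Brn3a (now Pou4f1), a transcription factor of habenula neurons. The other 5 plates were of E18 habenula from the strain C57BL/6: 2 of the left side, 2 of the right side and 1 of both sides, the last titled E1 but labelled E18 elsewhere. The sources used here do not give reporter genotype, sex, any sort gate or pooling of animals. No treatment is given for any plate.

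Radial glia line the ventricle of the developing brain, send a process to its outer surface and divide to give neurons first and glia later. Sox2, a transcription factor, keeps them in a progenitor state, and Notch signalling does so through the repressors Hes1 and Hes5. Late in gestation they turn to making astrocytes, ependymal cells and oligodendrocyte precursors, a step in which the nuclear factor I proteins take part.

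The plate was the unit of replication, and wells were never counted as replicates. Kept totals ran from 758697 to about 7760370 counts per plate over all 20 plates. Members on plate 1 had a median of 9396 counts per well and the other wells of that plate 6532, so the chance of seeing a low gene differed between them. Well numbers recur by construction, 380 of them on all 20 plates, because each plate numbers its own wells. Since the rule chose the members by their own transcripts, and since the other wells lay mostly on plate 2, every E18 comparison between members and other wells is a description with no test, and it also compares the plates. Values on plate 1 alone are given beside many of these comparisons, but not all.

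The share of wells meeting the rule was 73.8% on plate 1 (197 of 267, exact 95% binomial interval 68.1 to 79.0%) and 2.73% on plate 2 (3 of 110, 0.566 to 7.76%). The 5 C57BL/6 plates lay between these values, with 18.0% and 27.8% on left plates 1 and 2, 21.9% and 24.8% on right plates 1 and 2 and 40.8% on the plate of both sides. They held 296 such wells in all. With each well thinned to 2000 UMIs, the share was 32.6% on plate 1, 0.935% on plate 2 and 3.41 to 18.6% on the C57BL/6 plates. The intervals cover counting error only. What set plate 1 of the series apart from plate 2 was not tested.

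**Figure D1:**
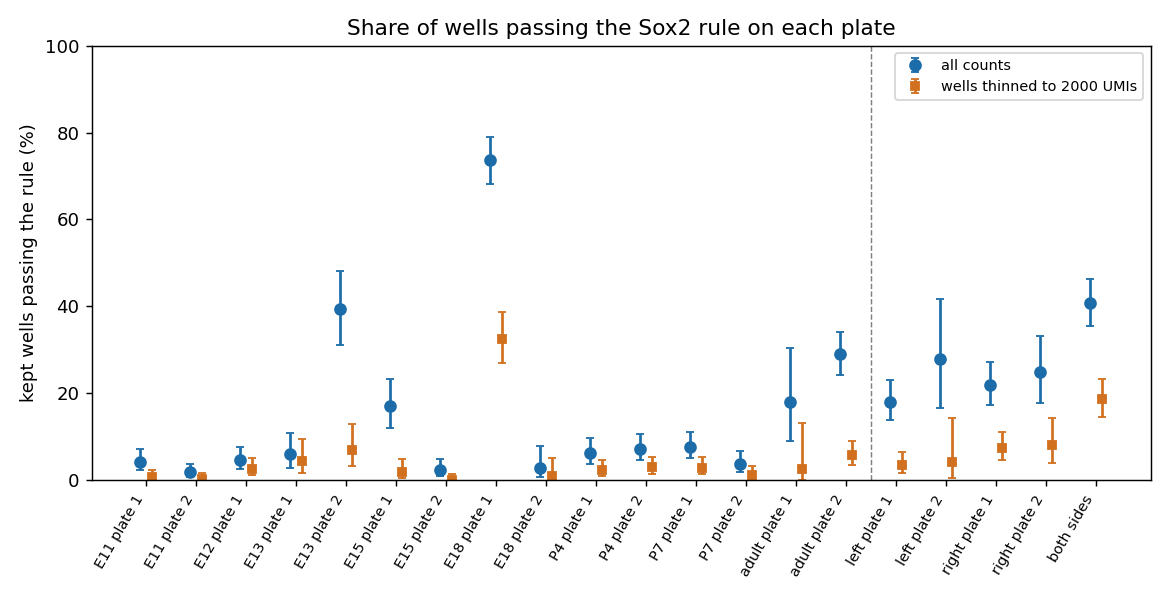
Percent of kept wells meeting the Sox2 rule on each plate at full depth and thinned to 2000 UMIs, with exact 95% binomial intervals. Plate 1 of the E18 series reached 73.8% and plate 2 of the same stage 2.73%, with the 5 C57BL/6 plates of E18 from 18.0 to 40.8%.

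Most members met the rule with room to spare, and a minority met it by single counts. All 4 second genes were seen in 65 members, 3 of them in 99 and 2 in 36. Sox2 (chr3:34650405-34652461, plus strand, GRCm38) had a median of 3 counts per member and a highest of 30.1, with exactly 1 count in 42 members. Sox2 lies inside Sox2ot on the same strand, so reads of these genes may not be told apart. Adgrv1, an adhesion receptor, was seen in 179 members. Slc1a3, the glial glutamate transporter GLAST, was seen in 126, Tmem132c in 127 and Nfix, a nuclear factor I protein, in 197. Just outside the rule lay 9 wells with Sox2 and 1 second gene, and 75 wells with 2 or more second genes and no Sox2 count, 48 of them on plate 1. The 11 members with exactly 1 Sox2 count and exactly 2 second genes had 34.5 CPM of Fabp7 (counts per 1000000 counts), against 45.3 CPM in the 9 wells and 58.7 CPM in the 75. Their level of the neuronal gene Stmn2 was 856 CPM, against 1367 and 933 CPM. Ttr, named below among the higher genes, was at 121, 615 and 41.6 CPM in the same order.

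The label of radial glia-like cells held for some members and not for others. With each well thinned to 2000 UMIs, 198 members could be compared, and 85 of them (42.9%) had 20 or more UMIs of a list of 20 radial glia genes that left out the rule's own. In those 85 the list of 10 neuron genes had a median of 1 UMI. Of the 198, 47 (23.7%) had 10 or more neuron UMIs, with a median of 6 radial glia UMIs. Only 1 member passed both limits, and it is counted in both the 85 and the 47. The remaining 67 passed neither limit, with medians of 11 radial glia and 2 neuron UMIs. Of 170 other wells, 5 (2.94%) had 20 or more radial glia UMIs and 123 (72.4%) had 10 or more neuron UMIs. Most other wells lay on plate 2, and these shares were not split by plate. At full depth other wells of plate 1 had 4084 CPM of the radial glia list and 5276 CPM of the neuron list. Those of plate 2 had 1287 and 8304 CPM, so the contrast in shares is partly one of plates. Members above the radial glia limit had a median of 6 Sox2 counts at full depth, and those above the neuron limit 2. On the C57BL/6 plates the same limits gave 141 of 295 rule wells (47.8%) and 119 of 295 (40.3%), with 4 wells above both. These limits were set after the wells had been plotted. The 200 wells are accordingly called members or Sox2-rule wells below, since they hold glial and neuronal transcriptomes side by side.

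**Figure D2:**
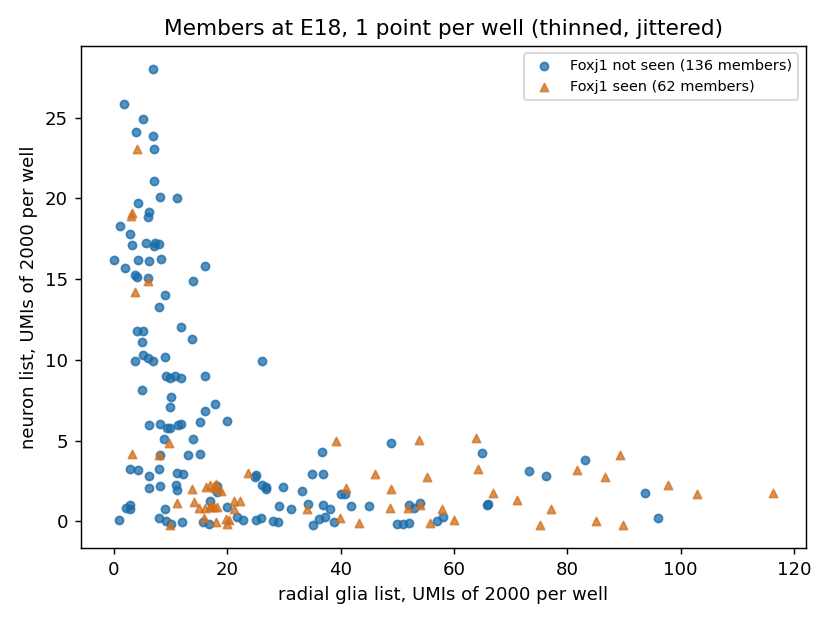
Each point is a member thinned to 2000 UMIs, with its summed UMIs of the radial glia list against those of the neuron list, and its shape showing whether Foxj1 was seen at full depth. The points run along both axes, with radial glia sums from 0 to 116, neuron sums from 0 to 28 and 1 member above both limits.

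The 3 members of plate 2 had little of several genes that were high in members of plate 1. Their Fabp7 counts were 0, 0 and 1, their Sox9 counts 0, 0 and 1, and Ednrb and Tnc were at 0 in each. Their Tubb3 counts, a neuronal tubulin, were 11, 17 and 17. Summed over the 3, the neuron list stood at 8363 CPM, against 8304 CPM in the other wells of plate 2. Other glial genes were present, with Ptn counts of 0, 5 and 20 and Vim counts of 0, 1 and 13. The radial glia list summed to 2197 CPM in the 3 against 1287 CPM in other wells of plate 2, and the astrocyte list to 1220 against 775 CPM. With 197 of the 200 members on plate 1, values for the 200 mainly describe that plate.

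Among genes outside the rule, the 15 that stood furthest above the other wells at E18 were Fabp7, Olig1, Ttr, Ednrb, Tnc, Sspo, Cpm, Ttyh1, Aldoc, Clu, Dbi, Id4, Mlc1, Pla2g7 and Bmpr1b. They were taken by their log2 ratio of CPM with 10 CPM added to each side. As background, 8.31% of 12078 genes were 2-fold or more higher in members and 5.12% 2-fold or more lower, and the median log2 ratio over those genes was 0.11. Fabp7, the brain fatty acid binding protein of radial glia (chr10:57784881-57788450, plus strand), stood at 1625 CPM in members and 33.6 CPM in other wells. On plate 1 alone the levels were 1652 and 99.96 CPM. Fabp7 was seen in 68.5% of members and in 21.4% of 140 other wells with counts of 5 or more neuron genes. Members with as many neuron genes were not counted among the 140. The median depth of the 140 was 8373 counts against 9421 in members. Of those 140 wells 44 lay on plate 1, and on that plate Fabp7 was seen in 69.0% of members and 50% of all other wells. The matrix glycoprotein Tnc (247 and 17.3 CPM on plate 1), the endothelin receptor Ednrb (422 and 44.2 CPM) and the oligodendrocyte lineage factor Olig1 (244 and 21.1 CPM) were likewise higher on that plate. Dbi, an acyl-CoA binding protein, was at 1410 and 335 CPM there. Each of the 15 was higher in members on plate 1, as the choice required.

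The 8 genes furthest below were Syt6, 9330162G02Rik, Tmem130, Cntnap2, Fosb, Cbln2, Car10 and Kcnma1. Syt6, a synaptotagmin, stood at 17.8 CPM in members and 675 CPM in other wells. On plate 1 alone these levels were 13.6 and 32.7 CPM, so most of the Syt6 in other wells was on plate 2. Cntnap2, an axonal adhesion protein, was at 207 CPM in members and 2374 CPM in other wells of both plates, and at 208 and 316 CPM on plate 1. Kcnma1, a calcium-activated potassium channel, was at 209 CPM in members and 462 CPM in other wells of plate 1. Car10 was at 30.7 and 381 CPM on both plates, and at 31.2 and 94.3 CPM on plate 1. For Cbln2 these levels were 27.3 and 354 CPM, and 27.2 and 59.6 CPM on plate 1. Fosb was at 9.91 and 188 CPM, and at 8.06 and 13.5 CPM on plate 1. The levels of 9330162G02Rik were 6.94 and 290 CPM, and 7.05 and 13.5 CPM on plate 1. 9330162G02Rik overlaps Ube3a on the opposite strand, and whether counting used strand is not given, so its identity is uncertain.

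Ttr, the thyroid hormone carrier made by choroid plexus and proposed as a marker of these cells, was concentrated in a few wells. It was seen in 110 of 200 members with a median of 1 count, and the highest member had 1052 counts. The top 5 members held 89.5% of all Ttr counts of members. In Sox2-rule wells its level was 965 CPM on plate 1 and 0 CPM on plate 2. On the C57BL/6 plates it was 0.864, 0, 3.61 and 8.44 CPM on left 1, left 2, right 1 and right 2, and 354 CPM on the plate of both sides. On plate 1 Ttr was seen in 55.8% of members and 41.4% of other wells, where it stood at 179 CPM. Of the 14 choroid plexus genes, Kl and Kcne2 were at 0 in members. The list, which includes Ttr, summed to 1908 CPM in members and 1095 CPM in other wells of plate 1. Ttr made up 965 and 179 CPM of these sums. With 10 CPM added to each side, 12 of the 14 genes differed by less than 2-fold there. The top 5 members held 49.9% of the list's counts, those of Ttr included.

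Whether the same genes went with the rule was tested on the 5 C57BL/6 plates, which had no part in choosing the E18 members. Wells there were split by the same rule on their own transcripts. Genes that vary together with the rule's genes are thus bound to differ, and the p-values are no independent evidence of a cell type. Counts were summed per plate over the 296 Sox2-rule wells and over the other kept wells, and the sums were compared with edgeR's quasi-likelihood test with the plate as a block. In those wells genes of radial glia and astrocytes, of Notch and FGF signalling and of the cell cycle were higher, and genes of neurons were lower. Of 12208 genes tested, 3251 passed an adjusted p of 0.05 (26.6%), with 1595 higher (13.1%) and 1656 lower (13.6%), and the median log2 difference was 0.0013. Without the plate of both sides 1085 genes were lower and 1083 higher. Nothing says that the plates came from separate animals, so the p-values measure the spread between plates, which may be technical. Wells were thinned to a common depth as an alternative, which called 891 genes of 3778 tested.

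The genes named from the E18 plates mostly went the same way. Of the 15 higher genes 13 could be tested and 12 were higher in Sox2-rule wells, and of the 8 lower genes 7 could be tested and 7 were lower. Some of the 12, Tnc and Mlc1 among them, passed edgeR's filter on low counts through Sox2-rule wells alone. With no filter all 12 were likewise higher. Fabp7 stood at 1435, 885, 1188, 1513 and 1801 CPM in Sox2-rule wells of left 1, left 2, right 1, right 2 and both sides, and at 9.24, 1.74, 14.7, 8.72 and 52.2 CPM in the other wells. The groups did not overlap, and the log2 difference was 6.49 ± 0.37 (SE, adjusted p = 3.83e-07). Fabp7 was seen in 63.2% of Sox2-rule wells and in 18.9% of 734 other wells with 5 or more neuron genes, at median depths of 16924 and 20625 counts. Sox2-rule wells with as many neuron genes were not among the 734. For Tnc the difference was 6.17 ± 0.17 (adjusted p = 2.94e-09), with 181 to 293 CPM in Sox2-rule wells and 2.27 to 4.34 CPM in other wells. The other wells of every plate lay under that filter's limit of 5.84 CPM, so Tnc was tested through Sox2-rule wells alone. Ednrb differed by 5.52 ± 0.15 (adjusted p = 2.94e-09) and Aldoc, a glial aldolase, by 5.19 ± 0.16 (adjusted p = 4.06e-09). The smallest rise among the 12 was that of Ttyh1, a glial membrane protein, at 3.18 ± 0.12. All 12 were higher on 5 of 5 plates.

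Id4, an inhibitor of DNA binding, was the tested gene of the 15 that did not pass. Its levels were 286, 43.1, 228, 98.9 and 618 CPM in Sox2-rule wells and 256, 121, 138, 129 and 522 CPM in other wells of left 1, left 2, right 1, right 2 and both sides. The groups overlapped, and the log2 difference was -0.08 ± 0.22 (edgeR adjusted p = 0.838). On plate 1 of the E18 series Id4 had been at 363 and 94.3 CPM. Its sister gene Id3 rose by 6.37 ± 0.20 (adjusted p = 4.06e-09), from 0 to 2.52 CPM in other wells to between 7.16 CPM on left 2 and 181 CPM on right 1 in Sox2-rule wells. Unlike Id4, Id3 lay under the filter's limit of 5.84 CPM in other wells of every plate, and was tested through Sox2-rule wells alone.

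**Figure D3:**
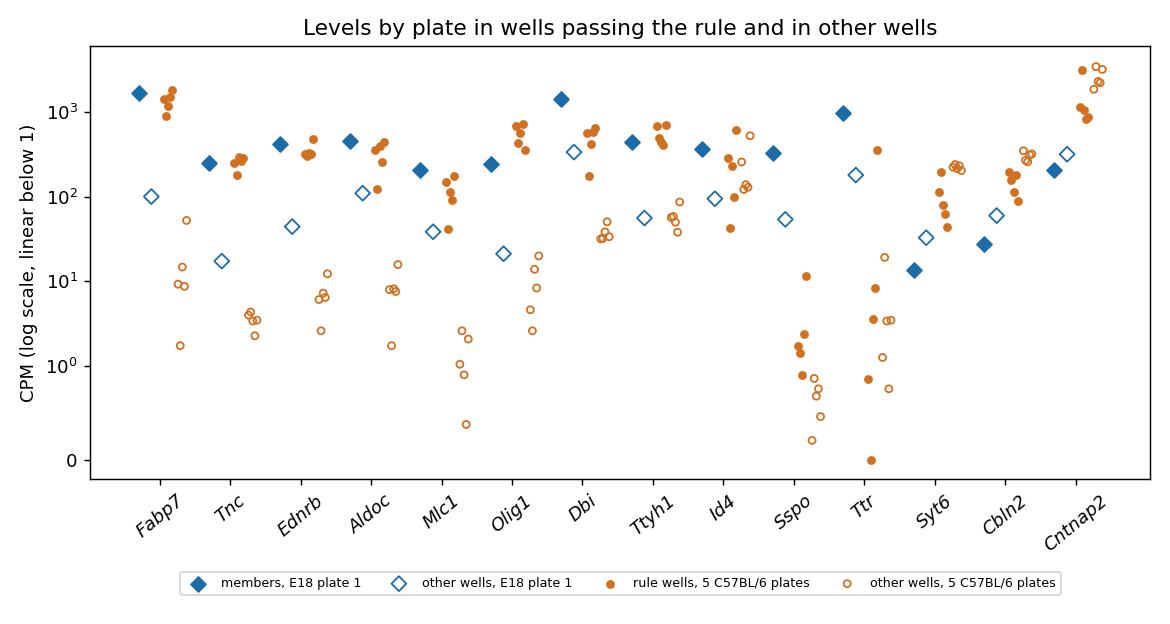
Levels of named genes in Sox2-rule wells and in other kept wells of E18 series plate 1 and of the C57BL/6 plates. CPM is on a log scale that is linear below 1. Fabp7 is 885 to 1801 CPM in Sox2-rule wells of the C57BL/6 plates and at most 52.2 CPM in other wells. E18 series plate 2, with 3 rule wells, is not drawn.

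In this test the 7 lower genes fell by 0.74 to 1.40 on the log2 scale, while the 12 higher genes rose by 3.18 to 6.53. Syt6 fell by 1.40 on the log2 scale (SE 0.23, adjusted p = 0.000949), Tmem130 by 1.36 (SE 0.13, adjusted p = 2.8e-05) and Car10, a carbonic anhydrase-related protein, by 1.33 (SE 0.17, adjusted p = 0.000171). Cbln2, a synaptic organiser, fell by 1.17 (SE 0.16). Cntnap2 fell by 1.12 (SE 0.21, adjusted p = 0.00206), a call lost without the plate block (adjusted p = 0.0800). Kcnma1 fell by 0.74 (SE 0.21, adjusted p = 0.0217), and it missed the threshold without the block (adjusted p = 0.174), without the plate of both sides (adjusted p = 0.0636) and without right plate 2 (adjusted p = 0.102). Fosb was too low to test.

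The largest rises among the 12208 genes tested were those of Mlc1, Lcat, Fabp7, Id3 and Gm6145. All of them but Fabp7 were under 5.84 CPM, the limit of edgeR's filter on low counts, in the other wells of every plate, so that they were tested through Sox2-rule wells alone. Mlc1, an astrocyte membrane protein, stood at 151, 41.7, 112, 90.5 and 176 CPM in Sox2-rule wells of left 1, left 2, right 1, right 2 and both sides, and at no more than 2.60 CPM in other wells (log2 difference 6.53 ± 0.27, adjusted p = 3.57e-08). Lcat, which esterifies cholesterol on lipoproteins, differed by 6.50 ± 0.53 at levels of 8.60 to 23.4 CPM. The largest falls were those of Hbb-bt, Gpr151, Sst, Oprm1 and Trpc4. Gpr151, an orphan receptor of habenula neurons, stood at 6.91 to 23.0 CPM in Sox2-rule wells and 36.0 to 109 CPM in other wells (log2 difference -2.82 ± 0.22, adjusted p = 4.46e-06). Oprm1, the mu opioid receptor, fell by 2.56 (SE 0.43) and Sst, the neuropeptide somatostatin, by 2.73 (SE 0.21). Hbb-bt encodes a beta globin, and its near-identical copies make its counts uncertain. Its call was lost without left plate 1 (adjusted p = 0.149), without the block (adjusted p = 0.0546) and in DESeq2 (adjusted p = 0.146).

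By role, nearly all radial glia genes were higher. Of the list's 20 genes 18 were higher, against 13.1% of all tested genes. None was lower and 2 did not pass (Hopx and Id4), with a median log2 difference of 3.46 over the 20. All 20 could be tested, 6 of them through Sox2-rule wells alone, and with no filter 18 were likewise higher, with a median of 3.35 against -0.11 over all 31541 genes fitted. Vim, an intermediate filament of radial glia, stood at 837 ± 636 CPM (SD, n = 5 plates) in Sox2-rule wells and 69.4 ± 22.4 CPM in other wells. Ptn, the growth factor pleiotrophin, stood at 3183 ± 1938 and 203 ± 87.6 CPM (log2 difference 3.84 ± 0.15, adjusted p = 2.52e-08). Sox9, a gliogenic transcription factor, differed by 3.28 ± 0.15 and Nes, the filament nestin, by 3.71 ± 0.30. At E18 in the Brn3a-tauLacZ series no test applies, and ratios were taken with 10 CPM added to each side. In members of both plates pooled, 18 of the 20 were 2-fold or more higher. On plate 1 alone 16 were, and none was 2-fold or more lower, where 5.52% of 12311 genes were 2-fold or more higher and 1.97% lower. Pax6, a transcription factor of radial glia, stood at 412 and 180 CPM pooled but at 415 CPM in members and 504 CPM in other wells of plate 1, and Nes at 66.0 and 34.6 CPM there. The list summed to 13577 CPM in members and 4084 CPM in other wells of plate 1.

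Of 18 astrocyte genes 12 were tested and 11 were higher, against 13.1% of all tested genes. Slc1a2, the glutamate transporter GLT-1, rose by 1.31 ± 0.15 (adjusted p = 7.22e-05) and Gja1, the gap junction protein connexin 43, by 5.11 ± 0.31 (adjusted p = 5.45e-07). Sparcl1 did not pass (1.11 ± 0.39). The genes of mature astrocytes Aqp4 and Gfap were too low to test. Gfap was seen in 4.5% of E18 members at 7.43 CPM, and Aqp4 in 7.5% at 46.2 CPM with 81.8% of its counts in 5 wells. In the nuclear factor I family, Nfia rose by 1.95 ± 0.14 and Nfib by 1.12 ± 0.11, and Nfic did not pass (0.18 ± 0.15). Of 11 Sox genes outside the rule 7 rose and none fell, where 13.1% of all tested genes were higher. Of the 11, 3 reached the filter's limit of 5.84 CPM in the other wells of no plate, and with no filter 7 were likewise higher. Sox21 (4.79 ± 0.35), Sox3 (3.27 ± 0.37) and Sox8 (4.95 ± 0.52) were among the 7 that rose, while Sox4, Sox5, Sox11 and Sox12 did not pass.

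Notch receptors and their targets were higher together. Of 14 Notch genes 13 were tested, 10 were higher and 1 lower, against 13.1% and 13.6% of all tested genes. The receptors Notch1 (4.72 ± 0.25), Notch2 (2.97 ± 0.47) and Notch3 (4.25 ± 0.30) rose. So did the ligands Dll1 (1.35 ± 0.26) and Jag1 (1.30 ± 0.25), while the ligand-like Dner fell by 0.40 (SE 0.12, adjusted p = 0.027). Rbpj, the DNA-binding partner of Notch, did not pass (0.10 ± 0.13, adjusted p = 0.651). Of the targets, Hes5 (chr4:154960923-154962371, plus strand) stood at 125, 41.6, 122, 169 and 150 CPM in Sox2-rule wells of left 1, left 2, right 1, right 2 and both sides and at 2.61 to 6.71 CPM in other wells. Its groups did not overlap, and the log2 difference was 4.66 ± 0.20 (adjusted p = 4.87e-08). Hes1 rose by 4.71 ± 0.42, Nrarp, a feedback inhibitor, by 4.13 ± 0.30, and Lfng, a glycosyltransferase that modifies Notch (chr5:140607320-140615545, plus strand), by 4.84 ± 0.44. On plate 1 of the E18 series Hes5 was at 75.6 CPM in members and 15.4 CPM in other wells, Lfng at 41.3 and 11.5 CPM and Notch1 at 118 and 46.1 CPM. There 7 of the 14 genes were 2-fold or more higher in members with 10 CPM added to each side. None was 2-fold lower and 7 lay between. Among the 7 between, the ligands Dll1 (10.1 against 15.4 CPM) and Dll3 (28.2 against 48.1 CPM) were lower in members.

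The promoter windows of Hes5 and Lfng are shown because these genes rose together with the receptors and hold the core sequence bound by RBPJ, GTGGGAA, searched on both strands. The windows run from 250 bases before to 50 bases after the start of the gene as RefSeq places it on GRCm38.p6, with matches in capitals (TTCCCAC is the match on the opposite strand). The Hes5 window, with 2 matches, is chr4:154960673-154960972 and the Lfng window, with 1, is chr5:140607091-140607390, both on the plus strand. For Lfng the RefSeq start lies downstream of the GENCODE start given above.
Hes5: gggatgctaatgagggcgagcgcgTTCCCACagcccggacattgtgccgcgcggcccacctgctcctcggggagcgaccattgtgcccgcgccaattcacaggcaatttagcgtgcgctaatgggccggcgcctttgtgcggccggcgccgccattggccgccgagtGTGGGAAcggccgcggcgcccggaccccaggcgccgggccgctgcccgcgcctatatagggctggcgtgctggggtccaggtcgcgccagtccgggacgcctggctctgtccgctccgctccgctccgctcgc
Lfng: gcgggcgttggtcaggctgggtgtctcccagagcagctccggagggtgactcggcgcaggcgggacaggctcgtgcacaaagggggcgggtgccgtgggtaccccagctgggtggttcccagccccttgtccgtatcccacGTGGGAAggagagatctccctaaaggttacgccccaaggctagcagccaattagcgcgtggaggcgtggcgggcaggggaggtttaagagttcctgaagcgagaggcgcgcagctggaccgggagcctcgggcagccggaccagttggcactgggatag
Of the 12 Notch genes with a window, 3 (25%) held the core, namely Hes5, Hey2 and Lfng, against 7.25% of 27025 genes. Among 12 genes named as higher in E18 members, 2 held it (Tnc and Aldoc). This core was chosen after its matches had been seen, out of 7 sequences searched. The others were TGGGAA (which it contains) in 4 of the 12 (28.3% of all genes with a window), the SOX sequences ACAAAG in 3 (21.0%), ACAATGG in 1 (4.15%) and CATTGTT in 0 (4.33%), and the longer sequences of RFX and of NFI factors in 0. A match is a description of letters and not of binding.

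FGF signalling genes were also higher on the C57BL/6 plates. Of 13, 12 were tested and 11 were higher, against 13.1% of all tested genes. On plate 1 of the E18 series, with 10 CPM added to each side, 4 of the 13 were 2-fold or more higher in members. None was 2-fold lower and 9 lay between. The receptors Fgfr1 (2.29 ± 0.15), Fgfr2 (0.49 ± 0.13) and Fgfr3 (3.86 ± 0.36) rose, as did the target transcription factors Etv4 (4.66 ± 0.57) and Etv5 (3.77 ± 0.35) and the feedback inhibitors Spry1 (2.83 ± 0.19), Spry2 (3.12 ± 0.28) and Spry4 (2.5 ± 0.45). The ligand Fgf15 did not pass (0.59 ± 0.23, adjusted p = 0.0787). Of 20 Wnt pathway genes 14 were tested and 7 were higher, where 13.1% of all tested genes were. Of the 14, 2 reached the filter's limit of 5.84 CPM in the other wells of no plate. With no filter 11 of 19 were higher and 1 lower. Sfrp2, a secreted Wnt antagonist, rose by 2.95 ± 0.43 and the receptor Fzd10 by 2.73 ± 0.30, while the target Axin2 did not pass (0.08 ± 0.17).

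Cell cycle genes were higher in Sox2-rule wells at low absolute levels. All 14 tested of 20 were higher, but a gene that was high in Sox2-rule wells could be tested through those wells. Of the 14, 2 reached the filter's limit of 5.84 CPM in the other wells of no plate, and 2 reached it there on all 5. With no filter all 20 had a positive log2 difference and 18 passed (edgeR), against 5.86% of 31541 genes higher. Of the astrocyte, Notch and FGF genes tested, 3 of 12, 5 of 13 and 3 of 12 likewise reached the limit on no plate of other wells, and with no filter 17 of 18, 11 of 14 and 13 of 13 were higher, with median log2 differences of 3.92, 3.09 and 2.41. The proliferation marker Mki67 stood at 35.5, 51.8, 37.0, 72.5 and 49.5 CPM on left 1, left 2, right 1, right 2 and both sides against 0.379 to 4.83 CPM in other wells (log2 difference 3.98 ± 0.41, adjusted p = 4.32e-05). The other wells of every plate thus lay under the limit of 5.84 CPM, and Mki67 was tested through Sox2-rule wells alone. On plate 1 of the E18 series the list differed less, at 372 CPM in members and 306 CPM in other wells. Counts of 5 or more of the 20 genes were found in 19 of the 200 members (9.5%) and 8 of the 177 other wells of both plates (4.52%). On plate 1 alone they were found in 19 of 197 members (9.64%) and 7 of 70 other wells (10%). Of 11 tested genes of intermediate progenitors, which lie between radial glia and neurons, 2 rose, 1 fell and 8 did not pass. Those counts are near the shares over all tested genes, 13.1% higher and 13.6% lower. Neurog2, a proneural factor, rose by 2.5 ± 0.48 and was higher on 4 of 5 plates.

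Neuron genes were lower but present. Of 10 neuron genes 9 were lower, none higher and Rbfox3 did not pass, with a median log2 difference of -0.65. Of 16 tested habenula neuron genes 10 were lower and 6 did not pass (median -0.80). Over all tested genes 13.6% were lower. Pou4f1 fell by 0.92 (SE 0.19, adjusted p = 0.00436), with 428 ± 175 CPM (SD, n = 5 plates) in Sox2-rule wells against 706 ± 147 CPM in other wells. The neuron list summed to 4020 to 6659 CPM in Sox2-rule wells and 7286 to 8665 CPM in other wells of the C57BL/6 plates. On plate 1 of the E18 series the sums were 3031 and 5276 CPM. Pou4f1 was seen in 25% of E18 members and in 82.1% of the 140 other wells with 5 or more neuron genes, among which no member was counted. On plate 1 it was seen in 24.4% of members and 38.6% of other wells.

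**Figure D4:**
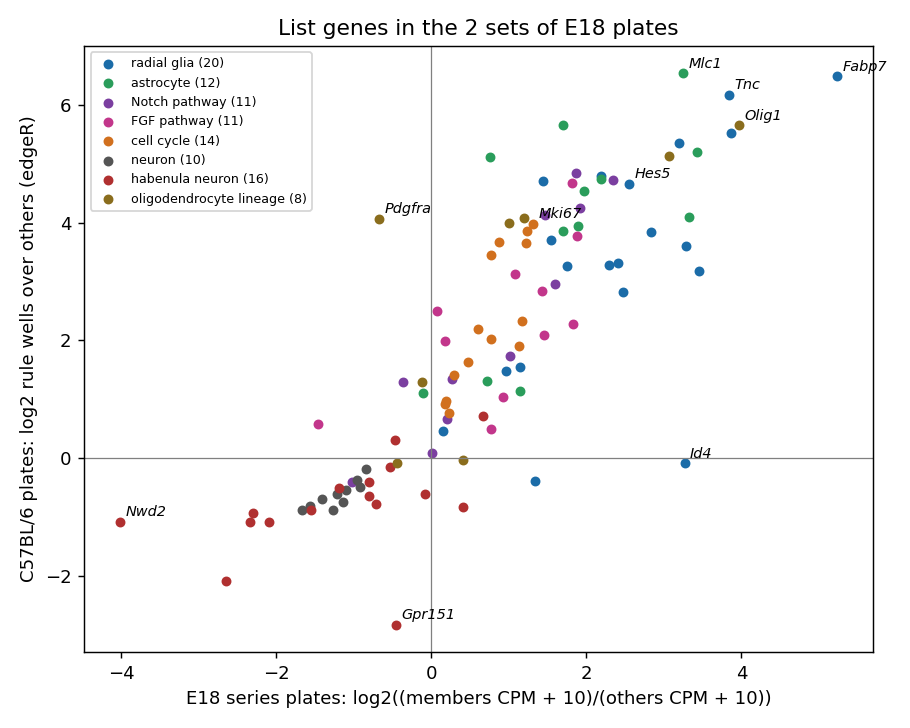
Each point is a gene of the fixed lists, with its log2 ratio of members to other wells on the E18 series plates (10 CPM added, no test) against its edgeR log2 difference on the C57BL/6 plates. Fabp7 lies far to the upper right, and Id4 lies at -0.08 on the vertical axis despite its high ratio at E18.

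Oligodendrocyte lineage genes were higher in C57BL/6 Sox2-rule wells. On those plates 6 of 8 tested genes were higher in Sox2-rule wells, against 13.1% of all tested genes. With no filter 6 of 10 were higher, with a median log2 difference of 2.55. Pdgfra, the receptor that marks oligodendrocyte precursors, stood at 308, 328, 162, 284 and 50.1 CPM on left 1, left 2, right 1, right 2 and both sides (4.07 ± 0.69, adjusted p = 0.00126), and at 1.52 to 29.0 CPM in other wells. On plate 1 of the E18 series it was 22.2 CPM in members and 13.5 CPM in other wells, with 90.9% of the members' counts in 5 wells. Sox10, a factor of the same lineage, was seen in 4% of members. The list summed to 466 CPM in members and 144 CPM in other wells of plate 1, and Olig2, a lineage factor, stood at 98.8 and 9.61 CPM. Olig1 was higher in rule wells in both sets, at 244 CPM on plate 1 and 356 to 719 CPM on the C57BL/6 plates. The difference between the sets of plates was not tested, since mouse line and set cannot be told apart.

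Genes of ependymal cells and of the subcommissural organ, a secretory gland of the diencephalic roof, were found in a subset of members. Foxj1, the factor that drives motile cilia, was seen in 62 of the 200 members, 61 of them on plate 1. These wells had a median of 10002 counts, against 9141 in the 138 without Foxj1. The split was made after Foxj1 values were seen and carries no test. The cilium gene Cfap126 stood at 241 CPM in the 62 and 6.00 CPM in the 138, and Dynlrb2, a dynein light chain, at 231 and 22.5 CPM. Cfap126 was seen in 43.5% and 5.07% of these wells and Dynlrb2 in 48.4% and 16.7%. The top 5 members held 52.6% of all Cfap126 counts of members and 51.7% of the Dynlrb2 counts. Over the ependymal list without Foxj1 the 62 wells had a median of 6.00 counts and the 138 a median of 2, and 5 of the 62 wells held 51.4% of their counts. Sspo, which encodes the SCO-spondin secreted by the subcommissural organ (chr6:48448229-48501250, plus strand), stood at 890 and 27.0 CPM, Spdef at 221 and 8.99 CPM and the roof plate factors Msx1 and Lmx1b at 321 and 51.8 CPM and at 140 and 13.5 CPM. The whole list of 17 roof plate, subcommissural organ and pineal genes summed to 4346 CPM with Foxj1 and 4066 CPM without. Other genes of that list were lower with Foxj1, among them Rspo3, a secreted enhancer of Wnt signalling (467 against 1386 CPM), and the transcription factor gene Zic1 (877 against 1197 CPM). The Foxj1 wells also had more of the radial glia list (20612 against 9689 CPM), less of the neuron list (1542 against 3926 CPM) and less of the cell cycle list (167 against 471 CPM). Ttr was at 117 CPM with Foxj1 and 1377 CPM without, but was seen in similar shares of them, 58.1% and 53.6%, and 5 members held most of its counts. Sspo and Foxj1 were seen together in 27 members, which is 46.6% of the 58 with Sspo and 43.5% of the 62 with Foxj1.

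Sspo differed between plates of the same stage. In Sox2-rule wells it was 325 CPM on plate 1 of the E18 series, with 55.7% of the counts in 5 wells, and 1.73, 1.43, 0.901, 2.41 and 11.5 CPM on the C57BL/6 plates of left 1, left 2, right 1, right 2 and both sides. It was too low to test there. Foxj1 itself was higher in Sox2-rule wells of those plates (3.16 ± 0.51, adjusted p = 0.000893), at 10.4, 14.3, 28.9, 20.5 and 105 CPM. Of the 15 ependymal genes 4 could be tested there, of which Foxj1 and Mia rose and Spag6l and Tppp3 did not pass. With no filter 11 of the 15 were higher and none lower. The list summed to 112, 50.2, 299.5, 106 and 563 CPM in Sox2-rule wells and to 98.1, 86.0, 118, 95.9 and 70.8 CPM in other wells of left 1, left 2, right 1, right 2 and both sides, so it was lower in Sox2-rule wells of left 2. The sources used here do not say which tissue next to the habenula each plate took in.

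Members also divided by their Fabp7 counts, a split likewise made after its values were seen. In 58 members with 5 or more counts, the radial glia list without Fabp7 and the genes of the rule summed to 24272 CPM and the neuron list to 1215 CPM. In the 79 with 1 to 4 counts the sums were 6789 and 3896 CPM, and in the 63 with none 5380 and 4059 CPM. Ptn followed at 9238, 2018 and 1438 CPM, and Olig1 at 710, 32.9 and 29.5 CPM. Sspo was at 29.0, 596 and 239 CPM and Ttr at 78.9, 1551 and 1032 CPM. The top 5 members held 55.7% of the Sspo counts and 89.5% of the Ttr counts. Fabp7 was seen in 72.4% of the members with Sspo and 69.1% of those with Ttr, against 68.5% of all. Median depths were 9987, 9562 and 7818 counts. Among C57BL/6 wells, 134 of the 296 Sox2-rule wells had 5 or more Fabp7 counts and 109 had none, with neuron list sums of 1383 and 8043 CPM.

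Across the series, wells meeting the rule differed from stage to stage. On E15 plate 1 they had 10103 CPM of the neuron list, against 10708 CPM in other wells. In the adult they had 4948 and 5325 CPM of the oligodendrocyte lineage list, against 466 CPM on E18 plate 1. The sums below are therefore not the course of a single cell type. The cell cycle list summed to 5483 and 4884 CPM on the E11 plates, 372 and 109 CPM at E15 and 372 CPM on E18 plate 1. After birth it was at 473 and 558 CPM at P4, 287 and 265 CPM at P7 and 116 and 360 CPM in the adult. The astrocyte list was between 527 and 850 CPM on the plates from E11 to E15, 5308 CPM on E18 plate 1, 3520 and 3212 CPM at P4 and 8486 and 5174 CPM in the adult. The radial glia list stood at 7621 and 6406 CPM at E11, 7086 CPM at E12, 5753 and 3728 CPM at E13 and 3123 and 6637 CPM at E15. It was at 13577 CPM on E18 plate 1, 12121 and 9897 CPM at P4, 6236 and 10352.5 CPM at P7 and 2277 and 3707 CPM in the adult. Plates of E18 differed among themselves. The 3 wells of E18 plate 2 had 1220 CPM of the astrocyte list and 2197 CPM of the radial glia list, and Sox2-rule wells of the C57BL/6 plates had 1702 to 3374 CPM and 6056 to 16536 CPM. In the other wells of E18 plate 1 the astrocyte list stood at 2990 CPM. Hes5 was highest at E11, with 976 and 737 CPM against 75.6 CPM on E18 plate 1. Aldoc was at most 9.73 CPM on every plate from E11 to E15 and at 447 CPM on E18 plate 1. Between 6 and 99 wells met the rule on each series plate outside E18, with no test made, and age cannot be told apart from plate where 1 plate stands for a stage.

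**Figure D5:**
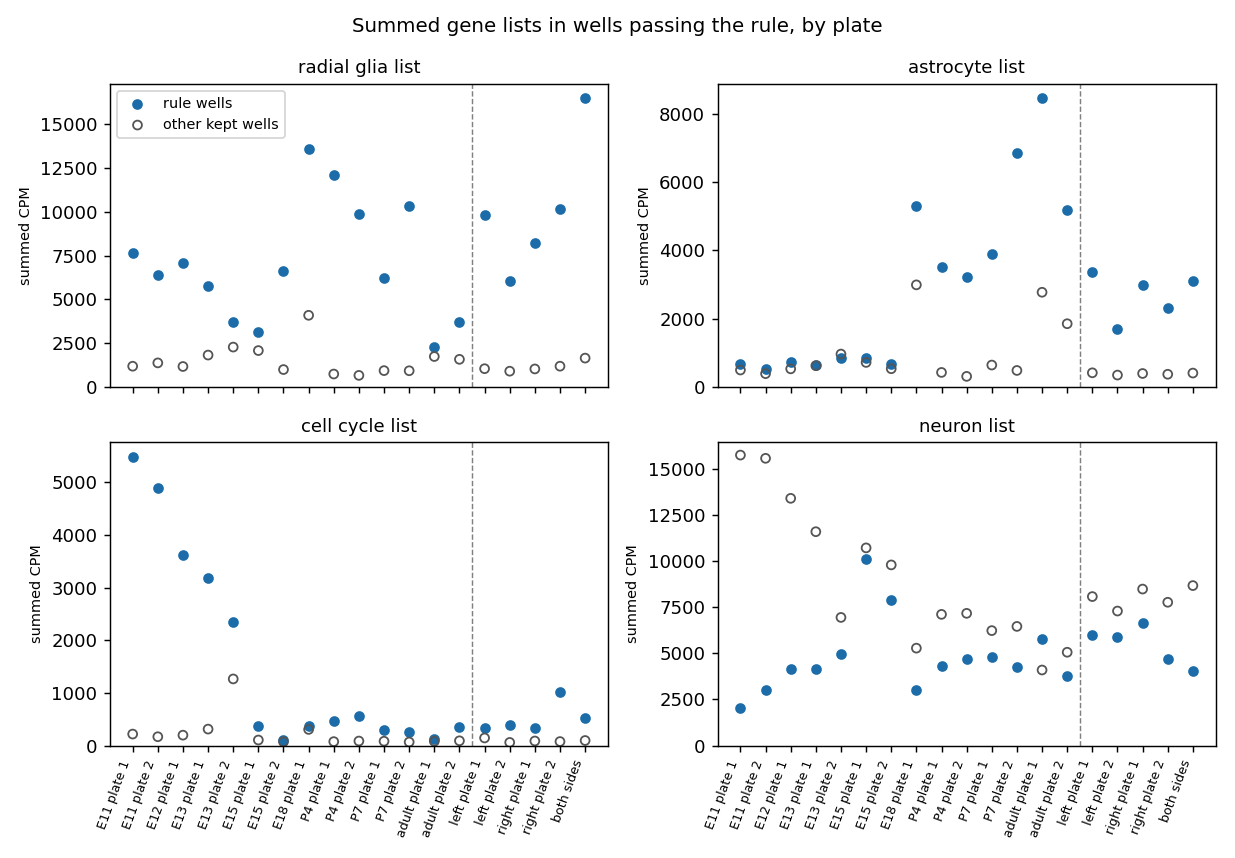
Summed CPM of gene lists in wells meeting the rule and in other kept wells, ordered by stage. Only plates with at least 5 wells meeting the rule are drawn. In wells meeting the rule, the cell cycle list drops from 5483 and 4884 CPM at E11 to 372 CPM on E18 plate 1. The astrocyte list in them is at most 850 CPM through E15 and at 5308 CPM on E18 plate 1. The 3 wells of E18 plate 2, with 1220 CPM of the astrocyte list, are not drawn.

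Large counts of microglia, fibroblast and endothelial genes lay in few members, with a median of 1 count per member for each of these lists. Single counts were more widespread, and the microglial gene C1qb was seen in 29% of members and the endothelial gene Cdh5 in 31.5%. The microglia list of 10 genes summed to 561 CPM in members and 998 CPM in other wells of plate 1, against 18.9 to 37.3 CPM in Sox2-rule wells of the C57BL/6 plates, and the top 5 members held 79.0% of its counts. The fibroblast list summed to 426 and 804 CPM on plate 1, with 62.4% of the members' counts in 5 wells, and the endothelial list to 330 and 643 CPM. Erythroid genes were at 17.1 and 19.2 CPM on plate 1, with Hbb-bt, Hbb-y, Slc4a1 and Hemgn at 0 in members. In the C57BL/6 test, none of the 2 tested microglia genes or the 2 tested endothelial genes passed, no fibroblast gene could be tested and 2 of 5 erythroid genes were lower. With no filter 4 of 10 microglia genes were lower and none higher. The part of these cell types in the differences above was not tested.

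Among genes of the response to dissociation, 4 of 7 tested were higher and 2 lower, against 13.1% and 13.6% of all tested genes. The sum of the list was higher on 1 plate only. It stood at 792, 908, 755, 798 and 2046 CPM in Sox2-rule wells of left 1, left 2, right 1, right 2 and both sides, against 803, 1031, 770, 949 and 848 CPM in other wells. On those C57BL/6 plates Fos, Egr1, Jun and Ier2 were higher in Sox2-rule wells, Hsp90aa1 and Jund lower and Dusp1 did not pass. Fos stood at 10.4, 10.0, 3.61 and 16.9 CPM on left 1, left 2, right 1 and right 2 and at 493 CPM on the plate of both sides, against 0.868 to 12.5 CPM in other wells (4.09 ± 0.52, adjusted p = 0.000176). On the E18 series plates Fos was at 90.8 CPM in members and 26.9 CPM in other wells of plate 1, and at 91.4 and 417 CPM on plate 2. The higher level of Fos in the other E18 wells pooled, 305 against 90.8 CPM, therefore came from plate 2.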

How the data were processed

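Single-cell libraries of mouse habenula were made by Cel-seq2 with a 6-base UMI, per the labels' protocols, on 20 plates grouped by their labels. The authors deposited expected counts per gene and well, which are UMI counts corrected for UMI collisions with 4096 possible UMIs, as found from the values: 46.1% of the series' and 43.8% of the C57BL/6 values were whole as deposited and 100% after inverting the correction, within 1e-06. A test on whole counts was planned for either kind of count, and deposited values were summed per plate and arm, then rounded. Trim Galore, STAR 2.5.3a and build mm10 are named in the submitters' processing notes, and the sources used here give no counting program or annotation. Of the series' 37994 gene IDs 37938 were in GENCODE M21 (GRCm38), and of the 36104 C57BL/6 IDs 36050, and coordinates come from it.

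Wells were kept with at least 1000 counts outside the 92 spike-in rows and mitochondrial rows, at least 500 genes and at most 20% mitochondrial counts. CPM is the summed count of an arm per 1000000 of its kept counts. Doublets were not called, and 0 members had over 3 times their plate's median count. The members and gene lists were chosen with earlier results of these data known. Genes were named by rule: the 15 largest log2 ratios of members to other E18 wells (10 CPM added, seen in at least 25% of members, higher also on plate 1), the 8 lowest ratios (seen in at least 25% of other wells, lower also on plate 1), the 5 largest rises and 5 largest falls passing the C57BL/6 test, and list members.

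On the C57BL/6 plates, edgeR 4.0.16 (filterByExpr, TMM, glmQLFit, glmQLFTest, R 4.3.3) compared Sox2-rule wells with other kept wells, with plate as a block because both arms come from the same plate, and Benjamini-Hochberg adjustment over 12208 genes. The SE is the log2 difference over the square root of F. Rule genes carry no p. Tested on simulated counts of 12213 genes for this comparison, the fit recovered 84% of 2-fold and 100% of 4-fold changes, with 7 false among 191 calls. The simulation had no plate effect, the same dispersion for every gene and 100 genes changed by each fold. In the data 26.6% of genes were called and wells were chosen by expression, so its false calls do not speak for the real comparison. DESeq2 1.42.0, other normalization, filters, stricter rules, depth matching and leaving out each plate were alternatives. 3 alternatives, namely recovered whole UMIs, wells thinned to 2000 UMIs and rule wells without Foxj1, were added after seeing the data, as were the splits by Foxj1, Fabp7 and thinned list sums. Promoters are from RefSeq (GRCm38.p6).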

Additional observations from a re-analysis of the deposited data

Results flagged for a closer look

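Chance flags about 1 in 20 groups of plates, and 9 values stood apart from the other 4 C57BL/6 plates by the gap between plates. The log2 ratio of Sox2-rule wells to other wells (10 CPM added) was 1.04 for Sspo on the plate of both sides and 2.69 for Fosb there. It was 1.80 for Pla2g7 and 0.78 for Id3 on left plate 2, the plate with 54 kept wells. In Sox2-rule wells the cell cycle list summed to 1023 CPM on right plate 2 and the intermediate progenitor list to 603 CPM on left plate 2. The erythroid list summed to 4329 CPM on right plate 1. On the plate of both sides the fibroblast list summed to 51.8 CPM and the dissociation response list to 2046 CPM. The log2 ratio of Ttr was -0.0516 and -1.54 on left plates 1 and 2 and 0.022 and 0.78 on right plates 1 and 2, so the sides had opposite signs, and this difference was not tested. In Sox2-rule wells Ttr stood at 0.864 and 0 CPM on the left plates and 3.61 and 8.44 CPM on the right plates. With so few counts the signs cannot show a difference between the sides.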

How the results depend on the processing

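The number of members was 86 with wells thinned to 2000 UMIs, and 158 to 197 under the stricter rules and depth limit. The C57BL/6 comparison was fitted in 16 alternative ways. Without the replicate block it called 2024 genes, 864 of them lower, of which 2023 were also called with it. Thinned wells called 891, with 414 higher and 477 lower, of 3778 genes tested. Leaving out each plate in turn called 2168 to 3670 genes, 1083 to 1949 higher and 1085 to 1721 lower. DESeq2 called 2654 and no filter 4182. A minimum of 10 wells per arm changed no plate and says nothing about stability. The alternative values of single genes there kept direction and side in 421 cases, 7 lost the call (in Cntnap2, Kcnma1 and Hbb-bt) and 4 changed sign. These were values of Id4, which never passed: 0.090 with 3 second genes required, 0.069 without the block, 0.13 thinned and -0.29 to 0.16 over plates left out. Its lowest value was -0.67, in Sox2-rule wells without a Foxj1 count (adjusted p = 0.138). Without plate 1 of the E18 series, 3 members remained and 13 log2 ratios changed sign; each is given without plate 1 and then without plate 2: Ttr -0.55 and 2.36, Ednrb -0.95 and 2.99, Tnc -0.47 and 3.23, Sspo -0.11 and 2.39, Cpm -0.69 and 3.19, Ttyh1 -1.63 and 2.78, Aldoc -0.11 and 1.93, Clu -0.69 and 2.25, Dbi -0.65 and 2.04, Id4 -0.21 and 1.84, Mlc1 -0.30 and 2.17, Pla2g7 -0.11 and 1.77 and Bmpr1b -0.30 and 2.37. Of the other E18 log2 ratios under an alternative, 67 moved by more than the counting interval and 104 did not, and of the list sums in members 24 moved and 20 did not. The causes were not tested. Depth limits what a Sox2 count of 0 can show, so wells outside the rule may hold Sox2 transcripts that were not counted.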
